A study of Mus musculus with 7 samples.

Results

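The genes described here encode the proteins of the cytosolic ribosome, and they comprised 85 of the 16760 genes in the deposited table of this mouse RNA sequencing study. Members were taken by symbol: names of the Rps and Rpl series with a number, an optional letter and an optional copy digit, plus Rpsa, Rplp0, Rplp1 and Rplp2, without rows marked as pseudogenes in the symbol. They divide into 30 genes of the small subunit, 43 of the large subunit, 3 of the P stalk, 3 diverged paralogs (Rpl22l1, Rps27l and Rpl7l1) and 6 retrocopies that GENCODE classes as processed pseudogenes (Rps3a2, Rps3a3, Rpl6l, Rps4l, Rpl32l and Rps12l1). Of the 85, 84 had a mean above 2 log2 CPM (the log2 of counts scaled to library size, CPM), and Rpl32l was the member below that level. The genes Rps4x, Rpl3l, Rpl10l and Rpl39l were not analysed here.

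There were 3 libraries with a deletion in band 5G2 of mouse chromosome 5 (5G2del) and 4 wild-type (WT) libraries. All came from strain C57/B6 and from cells lacking surface CD150 whose cell type is labelled HSC, the haematopoietic stem cell. Band 5G2 is the mouse counterpart of a segment of human 7q22 that is lost in myeloid malignancies. The comparison asks how mouse blood progenitors with that loss differ from progenitors without it. The sources used here give neither the ends, length and zygosity of the deletion nor any further sort marker. They also do not tie libraries to animals, so every p-value covers only the spread from library to library, part of which may be technical. Libraries are named by group and letter in the order of the deposited columns, and no column was tied to a numbered sample. Because each library is a bulk sample, fewer cells of a type and less RNA per cell cannot be told apart.

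The ribosome is the machine that translates messenger RNA: its small subunit decodes the message, its large subunit joins amino acids, and the P stalk of the large subunit recruits the translation factors. Cells need its proteins in matched amounts, and in humans the loss of 1 copy of any of several ribosomal protein genes causes Diamond-Blackfan anaemia, while loss of 1 copy of RPS14 contributes to the anaemia of the 5q- syndrome. Most ribosomal protein messages begin with a C followed by an unbroken run of pyrimidines, the terminal oligopyrimidine (TOP) element, through which mTOR and LARP1 set how strongly they are translated. An RNA library measures the amount of these messages and not their translation.

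The TOP element is the sequence feature by which these genes are known, so the starts of 6 members are printed, chosen to cover both subunits and the stalk. RefSeq promoter windows on build GRCm38.p6, from 250 bases before to 50 after the annotated start, were found for 60 of the 85 members. A C at the annotated start with at least 4 further pyrimidines was present in 14 of those 60 (23.3%), against 3.01% of all 27025 gene symbols with a window. A gene was counted if any of its windows matched. Each line gives 15 bases before the start and 15 from it on, and the capitals mark the C and the pyrimidines that follow it.
Rps6 (chr4:86857353-86857382, minus strand): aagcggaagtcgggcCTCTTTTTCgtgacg
Rps10 (chr17:27635230-27635259, minus strand): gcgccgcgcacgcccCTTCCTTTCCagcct
Rps27 (chr3:90213634-90213663, minus strand): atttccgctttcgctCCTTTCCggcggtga
Rpl15 (chr14:18270972-18271001, minus strand): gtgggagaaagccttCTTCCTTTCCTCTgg
Rpl35a (chr16:33056467-33056496, plus strand): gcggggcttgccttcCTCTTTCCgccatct
Rplp2 (chr7:141447636-141447665, plus strand): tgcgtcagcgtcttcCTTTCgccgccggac
The uninterrupted run was 9 bases in Rps6, the protein that S6 kinase phosphorylates, 13 in Rpl15 and 5 in Rplp2. A missing match says only that these letters are not at the annotated first base. Among other motifs, CCGGAAG, a core of Ets-family sites, was found on either strand in 25 of the 60 members (41.7%), against 9.93% of all symbols. GGGCGG, the core of an Sp1 site, was found on either strand in 37 (61.7%), against 38.2%. AAGATGGC, a YY1-type motif, was in 6 (10%), against 3.19%, and TATAAA on the sense strand was in 7 (11.7%), against 9.77%. The motifs were counted separately, and the end of CCGGAAG can share the letters AAG with the start of AAGATGGC. These matches are a description and not evidence of binding.

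At the level of the library, ribosomal protein messages took a similar part of the RNA in 6 of the 7 libraries and a smaller part in WT-A. Their share of the counts of all listed genes was 6.57%, 7.53% and 7.69% in the 5G2del libraries A, B and C. The share was 3.95%, 6.85%, 6.73% and 7.33% in WT-A, WT-B, WT-C and WT-D. The group means were 7.26% ± 0.607 in 5G2del and 6.21% ± 1.53 in WT (SD, 3 and 4 libraries), and the ranges overlapped. The mean log2 CPM over the 84 members above 2 was 8.97, 9.24 and 9.60 in the 5G2del libraries, against 8.19, 9.08, 9.41 and 9.31 in the WT libraries. WT-A was lowest and 5G2del-C was highest by share and by this level. WT-C was the highest WT library by this level but lay below WT-B and WT-D by share. The group means of this family level were 9.27 ± 0.31 in 5G2del and 9.0 ± 0.55 in WT, and without WT-A the WT mean was 9.27 ± 0.17.

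Mitochondrially encoded messages took 26.0%, 25.1% and 29.9% of the counts in the 5G2del libraries and 34.4%, 27.7%, 35.9% and 29.9% in the WT libraries. With those messages taken out of the total, the ribosomal protein share was 8.88%, 10.1% and 11.0% in 5G2del and 6.03%, 9.47%, 10.5% and 10.4% in WT, so WT-A was still the lowest. The effective library size, read from the value of a gene with 0 counts, spanned 34865420 in WT-C to 55716549 in WT-A. It is not a count total. The rebuilt counts of the listed genes exceeded it in 5G2del-C (47664360 against 41220903) and in WT-C (42038974 against 34865420). Those rebuilt counts spanned 37930174 in WT-B to 52194274 in WT-A. A stretch of chromosome 5 from Rasa4 to Zan (chr5:136083916-137477064, mm10), whose bounds were drawn from its lower values in 5G2del and so check no label, held 19 genes with a mean above 2 log2 CPM, with a median log2 fold change of -0.83. In 7 of the 19 every 5G2del library was below every WT library, which held for 2.78% of all genes. Cux1, a homeobox gene in that stretch, had 7.06, 6.80 and 8.01 log2 CPM in 5G2del, against 8.59, 8.44, 8.17 and 8.43 in WT, without overlap, and 5G2del-C lay nearer to the WT libraries than to the other 5G2del libraries.

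**Figure D1:**
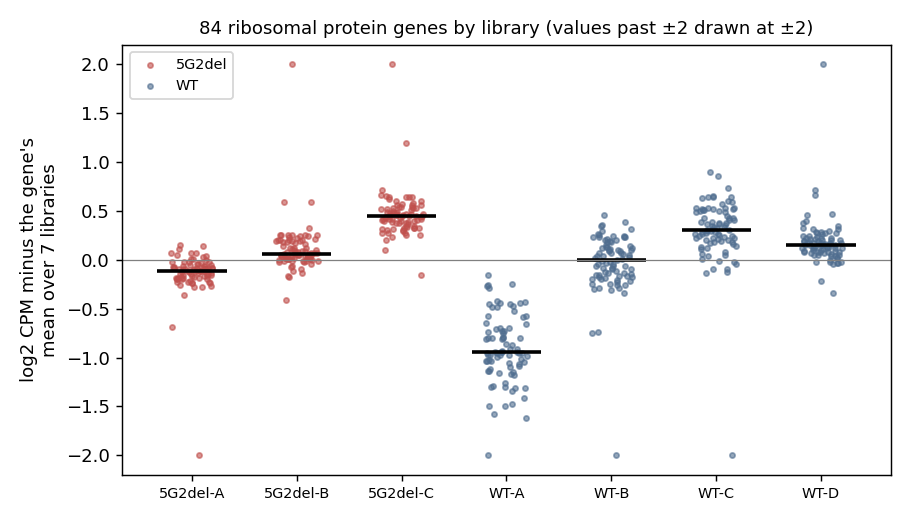
Log2 CPM of each of the 84 members above 2 minus that gene's own mean over 7 libraries (vertical axis), by library, with 5G2del in red, WT in blue, 1 point per gene and a black bar at the median. The points of WT-A lie below 0, those of 5G2del-C lie above 0 apart from 1, and the points drawn at the ±2 limits are Rps3a3, with Rps3a2 the isolated high point in 5G2del-C.

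No ribosomal protein gene passed the test between the groups. In limma with an intensity trend (limma-trend), fitted to all 16760 genes with Benjamini-Hochberg adjustment, 0 of 85 members had an adjusted p under 0.05 (0% of all genes did), and the lowest adjusted p among members was 0.989. At an unadjusted p under 0.05 the count was also 0 of 85, where 3.91% of all genes passed. Leaving out a library gave 2 members without 5G2del-A (3.9% of all genes), 0 without 5G2del-B (3.11%) and 0 without 5G2del-C (2.77%). It gave 0 without WT-A (4.47% of all genes), 0 without WT-B (5.85%), 2 without WT-C (3.29%) and 4 without WT-D (3.82%). The deposited log2 fold changes of the authors' own fit were above 0 in 84 members, and 1 member, Rpsa, had an unadjusted p under 0.05 in the authors' deposited table (0.0346, adjusted p 0.990).

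The direction, by contrast, was shared by nearly the whole family as long as WT-A was included. Of the 85 members, 84 had a higher mean in 5G2del, against 53.3% of all genes, and the exception was Rps3a1. The median log2 fold change over the members was 0.24, against 0.03 over all genes. When WT-A was left out, 35 of 85 members had a higher mean in 5G2del, against 52.1% of all genes, and the median was -0.04. When 5G2del-C was left out, 65 of 85 were higher, against 54.6% of all genes, and the median was 0.08. Leaving out 5G2del-A, 5G2del-B, WT-B, WT-C or WT-D gave 83 to 85 members higher and medians of 0.27 to 0.38, where 52.8%, 52.8%, 50.2%, 53.2% and 53.6% of all genes were higher in that order.

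**Figure D2:**
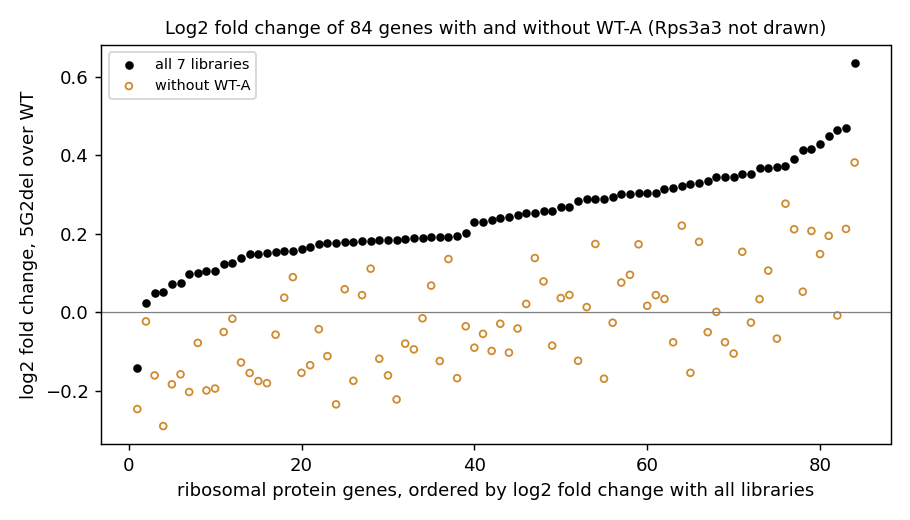
Log2 fold change of 5G2del over WT (vertical axis) for 84 members ordered along the horizontal axis by that value, with all 7 libraries (black) and without WT-A (orange, open). Rps3a3, at 2.54 and 1.86, is not drawn. All black points but the first, Rps3a1, lie above 0, and the open points lie on both sides of it.

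The low place of WT-A was visible gene by gene. WT-A held the lowest of the 7 values in 82 of 85 members, where it held the lowest value in 15% of all genes. The highest value lay in 5G2del-C for 58 members (14.5% of all genes) and in WT-C for 21 (13.6% of all genes). These ranks rest on the deposited CPM, which the scaling raises in 5G2del-C and WT-C. By share of counts, 5G2del-C held 7.69% beside 7.53% in 5G2del-B. WT-C held 6.73%, below WT-B at 6.85% and WT-D at 7.33%. All 3 5G2del libraries lay above WT-A in 83 members (26.5% of all genes), above WT-B in 27 (34.8% of all genes), above WT-C in 6 (25.4%) and above WT-D in 2 (23.7%). The spread between libraries was accordingly wider in WT, with a median SD over members of 0.29 in 5G2del and 0.60 in WT, against 0.25 and 0.33 over all genes with a mean above 2. In 1 member, Rpsa, every 5G2del library lay above every WT library, which held for 2.92% of all genes, and in 0 members were all 5G2del libraries below all WT libraries, which held for 2.78%.

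Members differed in how low they were in WT-A, and short messages were the lowest. Core members are here the genes of the small subunit, the large subunit and the stalk. The difference of WT-A from the mean of WT-B, WT-C and WT-D was taken on the log2 scale. Its median was -1.41 in the 16 core members with a coding length of up to 350 bases. It was -1.20 in 29 members of 350 to 500 bases, -1.02 in 18 members of 500 to 700 bases and -0.46 in 13 longer ones. Other protein-coding genes with a mean above 2 followed the same order at smaller differences, with -0.62 in 305 genes of up to 350 bases, -0.44 in 512, -0.21 in 865, and 0.01 in 4996 genes of 700 to 2000 bases. In 2961 such genes of over 2000 bases the median was above 0, at 0.16. The extremes among core members were Rps27 at -1.92, Rps14 at -1.89 and Rpl35a at -1.83 on the low side. On the high side they were Rplp0 at -0.19, Rpl6 at -0.27 and Rpl3 at -0.29. Among the retrocopies, Rps3a3 was lower, at -2.70, and Rpl6l stood at -0.23. Across the 76 core members the log2 coding length and this difference had a Pearson r of 0.71 and a Spearman rho of 0.72. These are points across genes of the same 4 libraries, and genes are not independent replicates. The median log2 fold change of 5G2del over WT in the same 4 length classes was 0.21, 0.23, 0.30 and 0.19 with all libraries, and -0.14, -0.10, 0.04 and 0.11 without WT-A. In other protein-coding genes of those classes it was 0.13, 0.11, 0.09 and 0.03 with all libraries. Without WT-A it was -0.03, -0.02, 0.01 and 0.02 in those genes. The part of message length in the group difference was not tested.

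**Figure D3:**
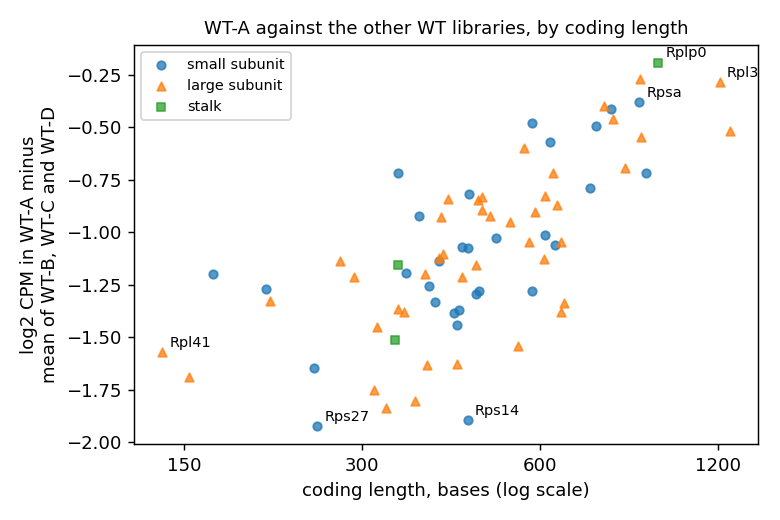
Coding length in bases on a log scale (horizontal axis) and log2 CPM in WT-A minus the mean of WT-B, WT-C and WT-D (vertical axis) for the 76 core members, by subunit. Short messages such as Rps27, at -1.92, lie low, and long ones such as Rplp0, at -0.19, lie near 0.

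Markers of other cells also differed between libraries. The 7 mature neutrophil genes measured of 8 listed, whose products fill neutrophil granules and cytoplasm, summed to 14.5 to 1358 CPM in 5G2del and 3.91 to 363 CPM in WT. They were highest in 5G2del-A, at 1358 CPM, and next highest in WT-A, at 363 CPM, the library with the lowest family level of its group in each case. Chil3, Lcn2 and Ltf were at 0 in some of the libraries. Erythroid genes, 7 of 8 measured, summed to 5.37 to 28.6 CPM in 5G2del and 10.8 to 54.6 CPM in WT, with Hba-a2 and Slc4a1 among those at 0 in some libraries. B lineage genes, 3 of 4 measured, summed to 516, 39.8 and 307 CPM in 5G2del, against 116, 21.7, 78.9 and 53.6 CPM in WT, with Igkc among those at 0 in some libraries. Genes of early progenitors, 7 of 7 measured and Kit and Cd34 among them, summed to 1249 to 1376 CPM in 5G2del and 1221 to 1392 CPM in WT. T and natural killer cell genes, 2 of 4 measured, summed to 40.6 to 74.1 CPM in 5G2del and 8.03 to 39.8 CPM in WT. Of these, Nkg7 was higher and Il2rb was lower in 5G2del. The sums of platelet, macrophage, and stromal and endothelial genes overlapped between the groups. Slamf1, which encodes CD150, stood at the low levels of 1.32 to 1.56 CPM in 5G2del and 0.215 to 0.835 CPM in WT. Its groups did not overlap, which held in this direction for 2.92% of all genes. The log2 fold change was 1.66 ± 0.75 (SE). The part of these cells in the ribosomal protein levels was not tested.

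The 30 small subunit genes had a median log2 fold change of 0.21, with 29 higher in 5G2del and 0 past the test, and without WT-A the median was -0.08 with 9 higher. Rpsa, which sits on the outer face of the small subunit and whose loss of 1 copy causes congenital asplenia in humans, was also the member with the highest mean level. It stood at 11.19, 11.25 and 11.32 log2 CPM in 5G2del, against 10.59, 10.85, 10.92 and 11.16 log2 CPM in WT. The groups did not overlap, but the gap between 5G2del-A and WT-D was small beside the range within WT. Its log2 fold change was 0.37 ± 0.19 (SE) with a limma-trend p of 0.0704 and a Benjamini-Hochberg adjusted p of 0.989, and without WT-A it was 0.28.

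Rps2, a protein at the entry of the messenger RNA channel, stood at 10.51, 10.77 and 10.71 log2 CPM in 5G2del, against 9.74, 10.42, 10.34 and 10.59 in WT. WT-D overlapped the 5G2del range, and WT-A was the lowest. The log2 fold change was 0.39 ± 0.21 (SE), and without WT-A it was 0.21. Rps3a1, the single member with a lower mean in 5G2del, encodes a protein of the small subunit platform and had a log2 fold change of -0.14 ± 0.26. Its direction turned when 5G2del-B or WT-C was left out.

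The 43 large subunit genes had a median log2 fold change of 0.27, all 43 with a higher mean in 5G2del and 0 past the test. Without WT-A, 20 of the 43 were higher and the median was -0.04. Rpl8, a protein near the peptide-bond-forming centre, stood at 9.28, 9.54 and 9.59 log2 CPM in 5G2del, against 8.85, 9.16, 9.15 and 9.45 in WT. WT-D again lay within the 5G2del range. Its log2 fold change was 0.32 ± 0.17 (SE), with a limma-trend p of 0.0903 before adjustment, and without WT-A it was 0.22.

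Rpl18 and Rpl21, the other large subunit genes among the 5 smallest p-values, had log2 fold changes of 0.33 ± 0.20 and 0.42 ± 0.25, and 0.18 and 0.21 without WT-A. At the other end, Rpl23 and Rpl30 each had a log2 fold change of 0.05, with SEs of 0.24 and 0.32, and without WT-A they stood at -0.16 and -0.29. Both also had a mean below WT when 5G2del-C was left out, when columns were quantile normalized and when mitochondrial messages were removed from the total.

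By log2 CPM the most abundant members after Rpsa were Rpl4, a lining of the exit tunnel, Rpl10, which joins the large subunit late in its assembly, and Rpl32. Their log2 fold changes were 0.30 ± 0.22, 0.17 ± 0.25 and 0.31 ± 0.34, and 0.17, -0.04 and 0.03 without WT-A. Per kilobase of transcript high levels belonged to Rpl32 (3383 CPM per kb), Rpl10 (2319) and Rplp1 (2119), and the lowest outside the retrocopies to Rpl7l1 (23.2) and Rps27l (55.7).

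Within the stalk, Rplp0 forms the base and Rplp1 and Rplp2 attach to it as dimers, and the base differed in pattern from the dimer partners. Rplp0 stood at 9.57, 9.64 and 10.27 log2 CPM in 5G2del, against 9.66, 9.47, 9.95 and 10.12 in WT. Here WT-A was not the lowest library, and the groups overlapped throughout. The log2 fold change was 0.03 ± 0.22 (SE). Rplp1 had 9.98, 10.20 and 10.30 log2 CPM in 5G2del, against 8.67, 10.28, 9.86 and 10.42 in WT, and Rplp2 had 9.76, 9.78 and 10.12 in 5G2del, against 8.72, 9.97, 9.76 and 9.89 in WT. Both were lowest in WT-A by over 1 log2 unit, with log2 fold changes of 0.35 ± 0.35 and 0.31 ± 0.28, and without WT-A these were -0.03 and 0.02. The difference between Rplp0 and its partners was not tested.

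Among the 12 genes tied to inherited anaemia or 5q loss in humans, all 12 had a higher mean in 5G2del and their median log2 fold change was 0.22. Of these 0 passed the test, and without WT-A 3 of 12 were higher with a median of -0.06. Rps14, the 5q- syndrome gene and a protein of the small subunit platform, stood at 8.69, 8.74 and 9.10 log2 CPM in 5G2del, against 6.96, 8.77, 8.76 and 9.03 in WT. WT-A alone lay apart, and the other 3 WT libraries fell inside the 5G2del range. The log2 fold change was 0.47 ± 0.41 (SE) with all libraries and -0.01 without WT-A.

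Rps19, the gene most often mutated in Diamond-Blackfan anaemia, stood at 8.69, 8.90 and 9.25 log2 CPM in 5G2del, against 7.97, 9.08, 9.0 and 9.0 in WT. Again WT-A lay apart, and the log2 fold change of 0.19 ± 0.27 (SE) was -0.08 without it. Rps10, another anaemia gene, had 9.81, 10.11 and 10.48 log2 CPM in 5G2del, against 8.90, 9.61, 10.25 and 9.90 in WT, a log2 fold change of 0.47 ± 0.29 with overlapping groups, and 0.21 without WT-A. For Rps7, Rps24, Rps26, Rpl26 and Rpl35a the log2 fold changes ran from 0.10 in Rps26 to 0.29 in Rps7 and Rpl35a, and without WT-A all 5 lay between -0.22 and -0.03.

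Rpl5 and Rpl11 travel with the 5S ribosomal RNA and, when free of the ribosome, bind Mdm2 and thereby stabilise p53. Rpl5 stood at 9.94, 10.11 and 10.24 log2 CPM in 5G2del, against 9.51, 9.93, 10.26 and 9.97 in WT. Rpl11 stood at 9.46, 9.72 and 10.23 log2 CPM in 5G2del, against 8.89, 9.56, 10.21 and 9.75 in WT. In both genes WT-A was lowest, WT-C was level with 5G2del-C, and the groups overlapped. The log2 fold changes were 0.18 ± 0.19 and 0.20 ± 0.29 (SE), and 0.04 and -0.04 without WT-A. Rpl15 had 0.30 ± 0.25, and 0.10 without WT-A.

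**Figure D4:**
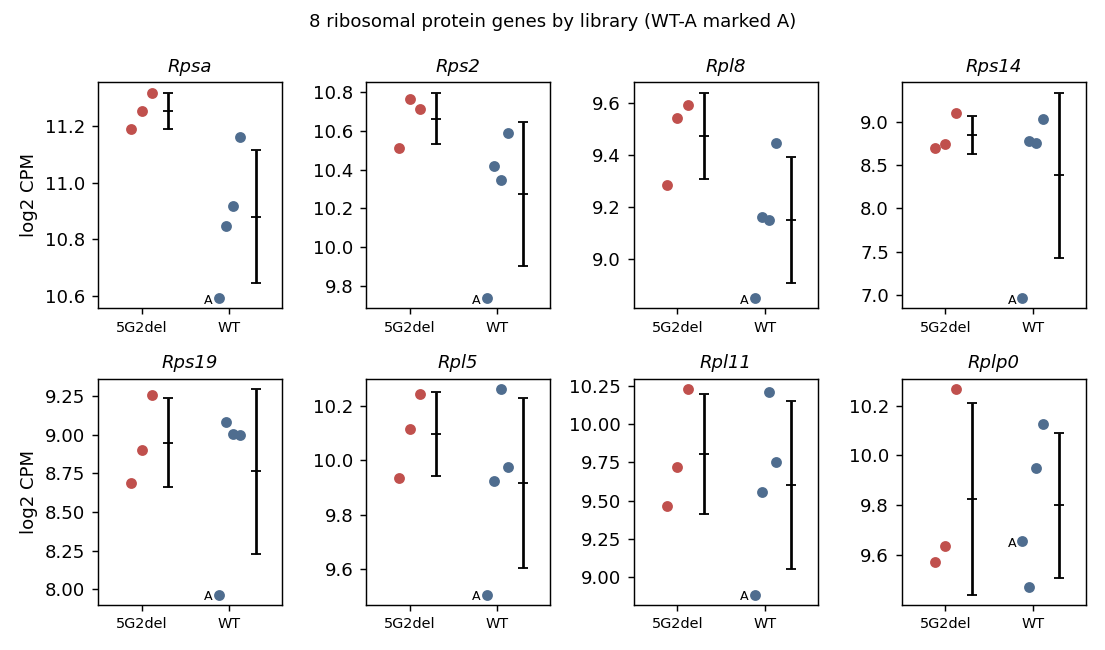
Log2 CPM (vertical axis, a separate scale in each panel that does not start at 0) of 8 members in the 3 5G2del libraries (red, left) and the 4 WT libraries (blue, right), with the mean and SD beside each group and WT-A marked A. Rpsa is the panel without overlap, and in Rps14 and Rps19 the WT mean is set apart from the other 3 WT points by WT-A.

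Rps27a carries ubiquitin fused to a small subunit protein and stood at 8.38, 8.49 and 8.98 log2 CPM in 5G2del, against 7.50, 8.76, 8.79 and 8.82 in WT, a log2 fold change of 0.15 ± 0.31 that was -0.17 without WT-A and -0.03 without 5G2del-C. Ribosomal proteins outside the symbol rule were also measured. Fau, a ubiquitin-like fusion, had a log2 fold change of 0.35 ± 0.34. Rack1, a scaffold on the small subunit, had 0.37 ± 0.22, and Rpl36al had 0.13 ± 0.24. In the list of 4 such genes all 4 were higher in 5G2del and 1 of 4 was so without WT-A.

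Paralogs were tracked with their partner genes. Rpl22l1 had 7.55, 7.95 and 8.55 log2 CPM in 5G2del, against 6.78, 7.91, 8.49 and 8.19 in WT, and Rpl22, a tumour suppressor in T cells that limits Rpl22l1 in mice, had 8.70, 8.69 and 9.36 in 5G2del, against 7.85, 8.88, 9.25 and 9.03 in WT. Both members of the pair had the same order of WT libraries, and their log2 fold changes were 0.18 ± 0.36 and 0.17 ± 0.30. Rps27l, a p53 target, had 4.75, 5.20 and 5.20 log2 CPM in 5G2del, against 3.96, 5.40, 5.11 and 4.99 in WT (log2 fold change 0.18 ± 0.31), beside Rps27 at 0.33 ± 0.43. Rpl7l1 had 4.76, 5.48 and 4.73 log2 CPM in 5G2del, against 4.45, 5.27, 4.84 and 4.67 in WT. In Rpl7l1 the highest values lay in 5G2del-B and WT-B, whereas in Rpl7 they lay in 5G2del-C, at 9.83, and WT-C, at 9.76. Of the remaining pairs, Rpl3, Rpl10, Rpl39 and Rpl36a were measured, with log2 fold changes of 0.18, 0.17, 0.35 and 0.19, beside Rpl36al above.

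The 6 retrocopies, intronless copies of ribosomal protein messages in the genome, all had a higher mean in 5G2del (median log2 fold change 0.25), and 4 of 6 were higher without WT-A. Rps4l, at 7.56 CPM per kb, had 2.27, 2.76 and 2.92 log2 CPM in 5G2del, against 2.05, 1.75, 2.61 and 3.16 in WT. Rpl32l, at 6.82 CPM per kb, had 1.16, 1.24 and 2.09 log2 CPM in 5G2del, against 0.38, 1.27, 1.95 and 1.39 in WT. Both overlapped between the groups, at log2 fold changes of 0.25 ± 0.39 and 0.25 ± 0.50. Rps12l1, at 0.07 ± 0.27, was below 0 without WT-A, without 5G2del-C and with the total taken without mitochondrial messages.

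The members that varied most against the family mean were the copies of Rps3a, whose shares of their summed CPM differed between libraries. Rps3a1 is the gene with introns (chr3:86137940-86142702, minus strand, mm10). Rps3a2 (chr14:88123017-88123808, minus strand) and Rps3a3 (chr13:108670603-108671397, plus strand) are retrocopies. Over 792 coding bases Rps3a2 differed from Rps3a1 at 4 positions (99.5% identity) and Rps3a3 differed at 9 (98.9%), with 11 differing positions in all. A stretch of 150 bases that holds 5 of these positions is printed from the GENCODE M21 transcripts to show how few letters separate the copies. Positions 519 to 668 are counted from the first coding base, and capitals mark the differing positions.
Rps3a1: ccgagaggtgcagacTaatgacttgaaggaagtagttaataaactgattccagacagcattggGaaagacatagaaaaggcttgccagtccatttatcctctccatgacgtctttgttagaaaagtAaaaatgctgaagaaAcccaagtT
Rps3a2: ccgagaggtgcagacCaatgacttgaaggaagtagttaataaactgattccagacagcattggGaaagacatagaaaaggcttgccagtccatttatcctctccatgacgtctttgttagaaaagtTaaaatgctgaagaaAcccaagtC
Rps3a3: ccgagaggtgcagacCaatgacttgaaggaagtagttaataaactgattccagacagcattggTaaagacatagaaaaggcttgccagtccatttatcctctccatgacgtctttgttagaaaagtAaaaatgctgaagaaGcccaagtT

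Rps3a3 stood at 2.98, 8.72 and 9.24 log2 CPM in 5G2del, against 2.42, 3.09, 3.43 and 8.82 in WT. The values fell at 2 levels, and both levels occurred in both groups. Rps3a2 stood at 8.07, 9.34 and 9.94 log2 CPM in 5G2del, against 7.72, 8.01, 8.73 and 9.46 in WT. Rps3a1 stood at 10.54, 10.05 and 10.57 in 5G2del, against 10.22, 10.56, 11.20 and 10.13 in WT. The libraries with the high Rps3a3 value were 5G2del-B, 5G2del-C and WT-D, and in each group these had a lower Rps3a1 share.

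As a share of the CPM summed over the 3 genes, Rps3a1 held 84.4%, 49.8% and 48.9% in 5G2del, against 84.7%, 85.0%, 84.4% and 49.2% in WT. Rps3a3 held 0.446%, 19.7% and 19.4% in 5G2del, against 0.380%, 0.477%, 0.387% and 19.9% in WT. Because RSEM divides reads among similar genes, each copy's own value is uncertain. The sum does not depend on the division among these 3 genes. Reads shared with other similar genes were not examined, and the cause of the 2 levels was not tested. The sum was 10.79, 11.06 and 11.60 on the log2 scale in 5G2del, against 10.46, 10.80, 11.45 and 11.15 in WT. It differed by 0.18 between the groups, with an exact two-sided permutation p of 0.6 over 35 splits (smallest possible p 0.0286, 3 against 4 libraries). The fitted log2 fold changes of 0.64 ± 0.46 for Rps3a2 and 2.54 ± 1.63 for Rps3a3 are those of the divided values.

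**Figure D5:**
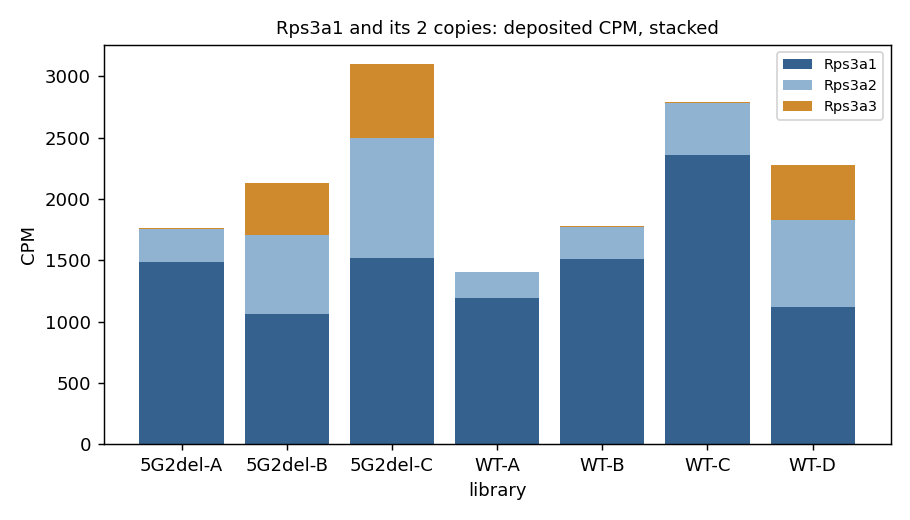
Deposited CPM of Rps3a1, Rps3a2 and Rps3a3, stacked, for each library on the horizontal axis with 5G2del on the left. Rps3a3 is a visible part of the bar in 5G2del-B, 5G2del-C and WT-D, at 19.4% to 19.9% of the sum, and under 0.5% in the other 4 libraries.

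None of the members lies in the lowered chromosome 5 stretch. The members on chromosome 5 were Rpl21, at 9.36 Mb from it, Rpl6 at 14.9 Mb, Rplp0 at 20.5 Mb, Rpl5 at 28.2 Mb and Rpl9 at 70.7 Mb. Their log2 fold changes ran from 0.03 in Rplp0 to 0.42 in Rpl21. Rpl9 had 10.11, 10.58 and 10.88 log2 CPM in 5G2del, against 9.44, 10.13, 10.88 and 10.43 in WT, a difference of 0.31 ± 0.31 that was 0.04 without WT-A. Rpl6 had 0.16 ± 0.17, and 0.09 without WT-A.

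Genes that act on the same pathway were read from lists beside the 53.3% of all genes with a higher mean in 5G2del, and in none of them did a gene pass the adjusted threshold. Translation factors and other genes with TOP messages had 13 of 16 higher and a median log2 fold change of 0.07, which was -0.02 with 6 of 16 higher when mitochondrial messages were removed from the total. In this list Hnrnpa1, a splicing factor, had the smallest p, with 8.73, 8.73 and 9.11 log2 CPM in 5G2del against 9.16, 9.05, 8.99 and 9.24 in WT and a log2 fold change of -0.26 ± 0.16. Eef1g, of elongation factor 1, had 0.27 ± 0.20, and Eif3h, of initiation factor 3, had 0.21 ± 0.20. Controllers of TOP messages (mTOR complex 1, its inhibitors, the Larp family and Myc) had 6 of 16 higher and a median of -0.02, with Larp1b at -0.95 ± 0.53, Rptor at 0.40 ± 0.25 and Tsc2 at -0.35 ± 0.22. Without WT-A the TOP translation list had 9 of 16 higher and the controllers 10 of 16, and without 5G2del-C the counts were 7 of 16 (median -0.03) and 11 of 16 (median 0.06).

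RNA polymerase I, which makes the ribosomal RNA, had 10 of 15 genes higher with a median of 0.08, and 7 of 15 with a median of -0.01 when mitochondrial messages were removed from the total. The genes with the smallest p were its subunits Twistnb at -0.36 ± 0.18, Cd3eap at 0.49 ± 0.27 and Polr1c at 0.43 ± 0.25. The processing and assembly list had 31 of 38 genes higher and a median of 0.17, and without WT-A 32 of 38 were higher with a median of 0.17. Over the other settings its count ran from 24 of 38 without 5G2del-B, where the median was 0.04, to 34 of 38 without WT-B, where it was 0.27. In 4 of its genes the unadjusted limma-trend p was under 0.05, all with a higher mean in 5G2del, where 3.91% of all genes passed, and that count was 1 without 5G2del-B and 2 with the total without mitochondrial messages. In 5 genes every 5G2del library lay above every WT library, which held for 2.92% of all genes.

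Utp4, of the small subunit processome, stood at 4.67, 5.24 and 4.81 log2 CPM in 5G2del, against 4.50, 3.72, 4.30 and 4.20 in WT. Bysl, needed for small subunit maturation, stood at 3.94, 4.49 and 3.58 log2 CPM in 5G2del, against 3.53, 3.17, 2.87 and 3.09 in WT. In both genes WT-A was the highest WT library, the opposite of its place in the ribosomal protein genes. Their log2 fold changes were 0.73 ± 0.24 and 0.83 ± 0.28 (SE), and 0.84 and 0.96 without WT-A. Aamp, whose yeast counterpart escorts the protein of Rpl10, had 0.55 ± 0.19, and Nop2, a ribosomal RNA methyltransferase, and Lsg1, a GTPase of late large subunit assembly, had 0.56 ± 0.22 and 0.38 ± 0.18, these last 2 named after their values were seen, to complete the 5 genes without overlap. All 5 had a limma-trend adjusted p of 0.989 after Benjamini-Hochberg adjustment.

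In the p53 pathway, to which free Rpl5 and Rpl11 feed, 10 of 15 genes were higher in 5G2del, their median being 0.25, and 9 of 15 without WT-A. The median was 0.10 without 5G2del-B and 0.38 without 5G2del-A. Eda2r, Fas and Pmaip1 were at 0 in some libraries. Of the 9 genes in this list with a mean above 2 log2 CPM, 6 were higher, with a median of 0.21. Mdm2, the ubiquitin ligase of p53, stood at 5.88, 5.80 and 5.77 log2 CPM in 5G2del, against 5.89, 6.07, 6.17 and 6.09 in WT. The groups did not overlap, which held in this direction for 2.78% of all genes, but 5G2del-A and WT-A were almost level. The log2 fold change of Mdm2 was -0.24 ± 0.15 with an unadjusted limma-trend p of 0.138. Zmat3, a p53 target that binds RNA, stood at 3.24, 3.52 and 3.47 log2 CPM in 5G2del, against 3.19, 2.59, 2.97 and 2.80 in WT. Its groups did not overlap either, in the higher direction, which held for 2.92% of all genes, with 5G2del-A and WT-A almost level. The log2 fold change of Zmat3 was 0.52 ± 0.27, and that of Trp53 itself was 0.21 ± 0.14.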

How the data were processed

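The values are log2 CPM, which the authors deposited for 7 libraries in 1 results table together with their log2 fold change, p-value, q-value and moderated t score per gene. Reads were aligned and counted with tools that include STAR 2.7.9a and RSEM 1.3.0, with limma 3.50.3 for statistics, per the submitters' processing notes, which list mm10 and GRCh38 as builds. The sources used here name no annotation, no filter for low genes and no scaling. Per the labels' protocols, total RNA was amplified with a whole-transcriptome kit, so reads are not independent molecules and counting floors (3 counts, 0.0538 to 0.0860 CPM) cover counting error only. The value of a gene with 0 counts, at an offset of 0.5 count, gave each effective library size, and counts were rebuilt from it. In 5G2del-C and WT-C the rebuilt counts exceed that size, so the deposited CPM carry a scaling that the sources do not name. RSEM shares reads among similar genes, so retrocopies and paralogs are uncertain.

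The comparison of 5G2del (n = 3) with WT (n = 4) was fitted with a trend in limma 3.58.1 (R 4.3.3) over all 16760 genes, with Benjamini-Hochberg adjustment and no covariate, and the pipeline was tested on simulated data. A log2 fold change is 5G2del minus WT. Positions, classes and coding lengths (the transcript with the longest coding sequence, shortest on ties) came from GENCODE M21 for mm10, which matched all but 12 genes. The members and gene lists were chosen with earlier results of these data known. Named members were those highest in level and in level per length, those with the 5 smallest p or the 5 lowest log2 fold changes, the human anaemia and 5q genes, the paralog pairs, the 5 varying most against the family mean, those on chromosome 5 and any with a mean of at most 2 log2 CPM. Other members are named as examples, chosen after their values were seen, and a few genes that the rules would name are not reported here. Alternatives were no trend, quantile normalization, median centring, a total without mitochondrial messages, a pseudocount of 1 CPM, a filter at a mean of 2 log2 CPM, voom weights on the rebuilt counts and leaving out each library. Applying them to the related lists and subunit groups was added after seeing the data.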

Additional observations from a re-analysis of the deposited data

Results flagged for a closer look

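In 4 named members the WT-A value lay far below the other 3 WT libraries. The gap to the nearest library, as a fraction of the WT range, was 0.921 in Rps19, 0.867 in Rps14, 0.845 in Rpl26 and 0.834 in Rpl30, above Dixon's critical value for 4 values in each. In Rps3a3 the WT-D value lay far above the other WT libraries, with a fraction of 0.841. Chance passes that limit in about 1 in 20 groups, 40 named members were looked at, and members share the same libraries, so the 4 are not separate events.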

How the results depend on the processing

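Over 14 alternatives 0 of 85 members passed the adjusted threshold in limma, and the lowest adjusted p of a named member was 0.833, without WT-B. At an unadjusted p under 0.05 the count was 0 with the deposited values, 1 (Rps10) with quantile normalization and 1 (Rpsa) with voom weights. Leaving out a library gave 0 to 4 such members, with 4 (Rpsa, Rpl8, Rps3a2 and Rps3a3) without WT-D, 2 (Rps3a2 and Rps3a3) without 5G2del-A and 2 (Rpl21 and Rps10) without WT-C. The median log2 fold change ran from -0.035 without WT-A to 0.38 without WT-C, and the number higher in 5G2del from 35 without WT-A to 85 without WT-C. It was 78 members with a median of 0.18 under quantile normalization and 79 with 0.15 when mitochondrial messages left the total, where the median of all genes was -0.06. Rpl23, Rpl30 and Rplp0 turned to -0.038, -0.026 and -0.12 under quantile normalization, and Rpl23, Rpl30, Rplp0 and Rps12l1 to -0.037, -0.036, -0.062 and -0.015 with the total without mitochondrial messages.

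Leaving out 1 library turned the direction of 24 named members, 22 of them without WT-A, 10 without 5G2del-C, 2 without 5G2del-B, and 1 each without WT-B (Rplp0) and WT-C (Rps3a1). Turned by WT-A alone were Rpl10 (-0.043 to 0.31), Rpl26 (-0.22 to 0.38), Rpl35a (-0.17 to 0.50), Rpl36a (-0.17 to 0.40), Rpl39 (-0.076 to 0.69), Rplp1 (-0.026 to 0.56), Rps7 (-0.026 to 0.55), Rps14 (-0.0077 to 0.68), Rps19 (-0.079 to 0.32), Rps24 (-0.098 to 0.47), Rps27 (-0.15 to 0.59) and Rps27l (-0.12 to 0.36), where the range is over the 7 libraries left out. Turned by WT-A and by 5G2del-C were Rpl7 (-0.067 to 0.27), Rpl11 (-0.035 to 0.40), Rpl22 (-0.13 to 0.33), Rpl22l1 (-0.17 to 0.41), Rpl23 (-0.16 to 0.18), Rpl30 (-0.29 to 0.22), Rpl32l (-0.047 to 0.48), Rplp0 (-0.20 to 0.15), Rps12l1 (-0.18 to 0.20) and Rps26 (-0.078 to 0.20). Rps3a1 (-0.27 to 0.082) and Rpl7l1 (-0.065 to 0.33) turned without 5G2del-B.

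No paired analysis was possible because the columns carry no replicate number, so the replicate block was not run. The cause of the low values in WT-A was not tested. Rpl32l had the lowest level behind its values.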
